A study of Mus musculus with 15 samples.

Results

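The comparison described here is between kidneys of mice on an adenine diet that received asiatic acid (AA group, 5 mice) and kidneys of mice on the same diet without it (M group, the CKD model, 5 mice). It was restricted to nuclear protein-coding genes whose value was above 0 in all 10 kidneys, which left 6839 of the 54532 genes in the table, or 6839 of its 21982 nuclear protein-coding genes. Of the others, 4742 were above 0 in M4, M5 and all AA kidneys but at 0 in at least 1 of M1 to M3, and 1525 of these were at 0 in all of M1 to M3, so a gene that was missed in those libraries could not enter.

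All animals were male C57BL/6 mice, 8 weeks old when acquired and acclimatized before the diets began. M and AA mice ate chow with 0.25% adenine for 4 weeks and a standard diet from week 5 to week 8. AA mice were given 30 mg/kg of asiatic acid daily by gavage, M mice received the vehicle, DMSO in saline, and all were killed after 8 weeks. The control group (C, 5 mice) had neither adenine nor asiatic acid, and its values are given only as background. Polyadenylated RNA of whole kidney was sequenced from 1 mouse per library, and values are FPKM, the counts on a gene scaled by its length and by its library, as they were deposited.

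Adenine is converted in the mouse to a poorly soluble product that forms crystals in the tubules, and the injury, inflammation and scarring that follow make it a common model of CKD. Tubular epithelium in such kidneys loses transporters and metabolic enzymes and gains injury genes, while interstitial fibroblasts lay down collagen and macrophages gather. Asiatic acid is a triterpenoid of Centella asiatica. In whole tissue, fewer cells of a type and less RNA per cell cannot be told apart.

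The 10 libraries were not alike, and the values of M1 to M3 stood apart before any gene was tested. M1 to M3 had 10068 to 12222 genes above 0, against 23040 and 25460 in M4 and M5 and 18695 to 22355 in the AA group. Counts recovered from the FPKM steps on nuclear genes numbered 2077600 to 2770100 in M1 to M3, 6488500 and 7142900 in M4 and M5, and 2225800 to 4271200 in the AA libraries. Mitochondrial genes took 84.8% to 86.8% of counts in M1 to M3, 72.9% and 64.0% in M4 and M5, and 69.2% to 87.2% in the AA group. Over the members, log2 values correlated between pairs of AA libraries at r = 0.866 to 0.933, and M4 or M5 with M1 to M3 at 0.595 to 0.814, a description across genes. The first principal component, with 29.4% of the variance, placed M1 to M3 at -29.6 to -19.6, the AA libraries at -9.45 to 2.30, and M4 and M5 at 33.7 and 55.3. The second, with 25.9%, placed all AA libraries (13.8 to 27.8) above all M libraries (-44.3 to -6.17). The labels name no batch, and the part of these features in the results was not tested, so a log2 fold change or list median is also given by set, first against M4 and M5 alone and then against M1 to M3 alone, wherever the 2 sets differ by over 1.5 times or in sign. AA2, with fewer nuclear counts than M1 and M3, had 18972 genes above 0, against 11551 and 12222 in those, and the cause of this difference was not tested.

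The tissue carried the markers of its label. Of 8 defining markers of kidney epithelium, 5 were above 0 in all 10 libraries, and Lrp2, Slc12a3 and Pax8 were at 0 in at least 1 of M1 to M3. Their sum ran from 12.8 to 138 FPKM in the M group and from 42.0 to 82.3 in the AA group. The 3 fibroblast markers summed to 48.8 to 239 FPKM in M and 145 to 268 in AA, and the 4 macrophage markers to 85.6 to 340 in M and 66.7 to 121 in AA. The 3 endothelial markers were above 0 in every library (9 to 13.8 in M, 5.69 to 14.2 in AA). Podocyte markers summed to 0.425 to 12.2 FPKM in M and 2.30 to 3.47 in AA, erythroid markers to 12.2 to 31.2 and 4.92 to 31.9, lymphocyte markers to 0.329 to 3.54 and 2.41 to 4.92, and the 2 neutrophil markers to 1.93 to 37.0 and 0.186 to 10.4. Adipose markers reached 0.337 in M and 3.27 in AA and adrenal markers 1.61 and 1.75, with 1 adrenal marker at 0 in all M and all AA libraries.

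Matrix genes and tubular regulators were among the members that were higher in AA kidneys, and genes of RNA processing, tubular injury and macrophages among those that were lower. With limma on log2(FPKM + 1), a member was called where the Benjamini-Hochberg adjusted p over all 19798 genes tested was at most 0.05 and the log2 fold change at least 1 in either direction. AA raised 113 members (1.65% of members, against 11.7% of all genes tested) and lowered 137 (2.00%, against 1.07%), which is 250 in all (3.66%, against 12.8%). Of all 19798 genes tested, which include genes at 0 in some of the 10 libraries, 2321 were called higher. The calls depend on this pool, since 38 members were called higher and 52 lower when only the members were fitted and adjusted. The median log2 fold change was -0.08 over the members and 0.17 over all genes tested. A further measure is whether the 5 AA and 5 M values overlap. They did not for 197 members that were higher in AA (2.88%, against 11.9% of all genes tested) and 195 that were lower (2.85%, against 1.31%).

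The balance of rises and falls depended on the scale, since 45.2% of the called members were higher as deposited. This share was 63.5% with equal summed FPKM of nuclear protein-coding genes (162 higher, 93 lower), 59.0% after centring on the median of the members (171 and 119) and 9.82% after quantile normalization (49 and 450), which moved the members' median to -0.38. With voom on the recovered counts it was 62.8% (157 and 93) and with library quality weights 12.8% (57 and 389). All 250 called members kept their sign under the 3 scalings and against each set of M libraries. With no pseudocount and the members fitted alone, limma called 0 members, although 1273 had an unadjusted p under 0.05. When each library was left out in turn, 47 (without M3) to 147 (without M4) members were called higher and 93 to 166 lower.

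Against M4 and M5 alone, 40 members were called higher and 516 lower (7.19% higher), of which 12 and 78 were among the 113 and 137. Against M1 to M3 alone, 317 were called higher and 326 lower, including 107 and 90 of them. These comparisons use the same AA libraries. A change of at least 1 on the log2 scale against both sets was found for 43 of the 113 and 64 of the 137.

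**Figure D1:**
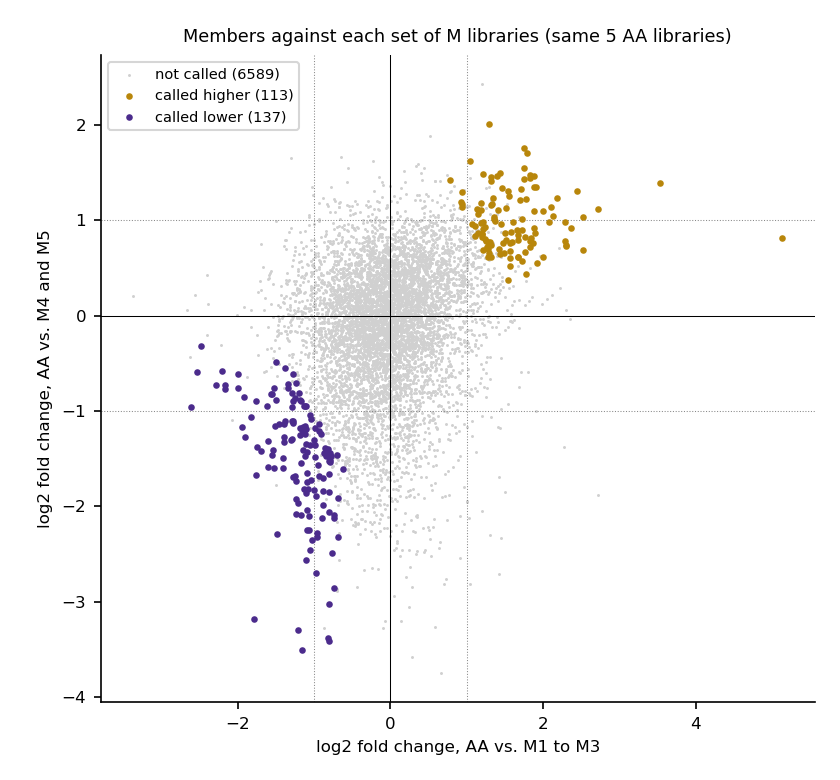
Each point is 1 of 6839 members, with its log2 fold change of AA against M1 to M3 on the horizontal axis and against M4 and M5 on the vertical axis, both on the log2(FPKM + 1) scale, and the 113 called rises and 137 called falls in colour. Both axes use the same 5 AA libraries, and every called member lies in the quadrant of its own sign.

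The called falls were shorter genes than the called rises. The longest transcript had a median of 2410 bases for the falls, 4680.5 for the rises and 3630 for all members, and the gene spanned 11.6 kb, 50.5 kb and 28.1 kb. GC content had medians of 51.1%, 48.6% and 48.6%. The part of length in the calls was not tested.

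The 12 largest falls and 12 largest rises were picked for not overlapping and for keeping their sign, so neither trait is evidence about them. Among these falls, Flna (chromosome X, 74223461 to 74249820, minus strand, GRCm38), which encodes the actin crosslinker filamin A, came first. Its FPKM was 4.67, 10.2, 9.35, 17.3 and 27.4 in M1 to M5 and 0.859, 0.908, 2.19, 1.48 and 2.58 in AA1 to AA5, and 5.93 to 13.2 in controls. Every AA kidney was below every M kidney, and the log2 fold change was -2.34 (SE 0.42, adjusted p = 0.00398), -3.18 against M4 and M5 and -1.79 against M1 to M3. The same held for Jun (chromosome 4, 95049034 to 95052222, minus strand), a subunit of the AP-1 transcription factor encoded in a single exon. Jun stood at 6.43, 13.1, 7.32, 6.59 and 9.70 FPKM in M1 to M5 and at 0.599, 1.74, 2.57, 3.61 and 1.52 in AA1 to AA5, and the AA values overlapped those of controls (1.21 to 2.74). It fell by 1.72 on the log2 scale (SE 0.34, adjusted p = 0.00574), with -1.67 and -1.76 against the 2 sets. Of its exonic bases, 232 are shared with the antisense gene Junos, whose reads cannot be told apart here because no strand-marking step is stated.

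The 250 bases before the start of 3 called genes are shown because Flna and Jun fell and Nid1, a basement membrane gene described below, rose. They are from RefSeq (GRCm38.p6), written 5′ to 3′ on the gene's strand, for Jun (chr4:95052223-95052472, minus), Nid1 (chr13:13437352-13437601, plus) and Flna (chrX:74246535-74246784, minus), with capitals marking the matches to 1 motif each, searched on both strands. The motif is TGACNTCA for Jun, the binding site of AP-1 and ATF dimers, CCAAT for Nid1 and the GC box GGGCGG for Flna. The RefSeq start used here lies inside the GENCODE gene given above, by 3286 bases for Flna and 51 for Nid1, so all of the Flna stretch and the last bases of the Nid1 stretch are within the GENCODE gene.
Jun: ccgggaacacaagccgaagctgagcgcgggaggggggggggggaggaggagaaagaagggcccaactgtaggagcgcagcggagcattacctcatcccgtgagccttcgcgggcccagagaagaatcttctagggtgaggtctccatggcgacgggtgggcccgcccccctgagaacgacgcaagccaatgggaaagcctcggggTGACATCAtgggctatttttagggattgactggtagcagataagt
Nid1: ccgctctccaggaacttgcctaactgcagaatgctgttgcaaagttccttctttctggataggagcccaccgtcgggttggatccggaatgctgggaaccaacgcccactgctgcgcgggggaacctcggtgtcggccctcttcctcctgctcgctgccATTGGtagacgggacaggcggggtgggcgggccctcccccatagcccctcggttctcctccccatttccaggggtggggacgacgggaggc
Flna: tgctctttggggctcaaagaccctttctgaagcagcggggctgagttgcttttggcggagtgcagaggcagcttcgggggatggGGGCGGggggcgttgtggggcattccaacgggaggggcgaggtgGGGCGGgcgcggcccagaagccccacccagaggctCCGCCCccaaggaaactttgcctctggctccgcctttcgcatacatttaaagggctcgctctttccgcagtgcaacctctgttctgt
Jun has 1 match to TGACNTCA, 45 bases before the start, Nid1 1 match to CCAAT, 91 bases before it, and Flna 3 matches to GGGCGG, at 166, 122 and 87 bases. Such matches did not set the called genes apart. Promoters were found for 5453 members, 88 of the called rises and 112 of the called falls. TGACNTCA was in 7.59% of the table's 27025 promoters, 5.79% of the members', 2.27% of the rises' and 2.68% of the falls'. CCAAT was in 34.5%, 36.2%, 40.9% and 37.5%, and GGGCGG in 32.9%, 63.5%, 62.5% and 67.9%.

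The rest of the 12 falls were led by RNA-processing genes. Ccnl2, a cyclin that associates with splicing factors, was at 2.60, 2.97, 4.24, 13.5 and 30.7 FPKM in M1 to M5 and at 0.320, 0.735, 1.46, 1.04 and 1.08 in AA1 to AA5 (log2 fold change -2.10, SE 0.53, adjusted p = 0.0166). Rsrp1, an arginine- and serine-rich protein, was at 9.29, 13.2, 15.9, 54.7 and 58.4 in M and at 2.96, 4.64, 6.85, 6.02 and 4.71 in AA (-2.04, SE 0.49, adjusted p = 0.0125). In both genes M4 and M5 were the highest M kidneys, so the fall was larger against them (-3.51 and -3.29) than against M1 to M3 (-1.16 and -1.20). The opposite order was seen for Lgals1, which encodes galectin-1, at 107, 199, 185, 52.8 and 46.1 FPKM in M and 12.4, 16.8, 37.7, 31.7 and 38.2 in AA. Its log2 fold change was -1.95 (SE 0.49, adjusted p = 0.0148), -0.95 against M4 and M5 and -2.61 against M1 to M3.

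The other members of this group of 12 were Plekhj1 (-1.81, SE 0.35, adjusted p = 0.00497, by set -2.29 and -1.49), Anxa1 (-1.76), Vars (-1.66, by set -2.70 and -0.97), Snrpe (-1.65), Cct8 (-1.63), Wdr43 (-1.59) and Zdhhc13 (-1.59, by set -0.73 and -2.17). Vars, the cytosolic valyl-tRNA synthetase, was at 2.03 to 13.1 FPKM in M and 0.301 to 1.30 in AA. Wdr43, a factor of small ribosomal subunit assembly, was at 3.36 to 5.37 in M and 0.128 to 1.55 in AA, with -1.59 against M4 and M5 and -1.60 against M1 to M3. Plekhj1 shares 429 exonic bases with Sf3a2 and Cct8 shares 192 with Usp16, both on the opposite strand.

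Among the 12 largest rises that did not overlap, several rest on uncertain sequence. The first, AC149090.1, lies on an unplaced scaffold and was at 1.57, 1.76, 2.94, 45.6 and 77.3 FPKM in M1 to M5 and 81.7, 147, 95.4, 128 and 88.6 in AA1 to AA5. Its fold change of 3.41 on the log2 scale (SE 0.86, adjusted p = 0.0156) was 0.82 against M4 and M5 and 5.13 against M1 to M3, and M5 was close to the lowest AA kidney. In Gm10800 (1.93, SE 0.46, by set 1.03 and 2.53) 42.0% of the 31-base words also occur in 11 other genes. Cep85, a centrosomal protein gene, shares 9.82% with 1430 others, and was at 113, 243, 148, 206 and 122 FPKM in M and 599, 528, 656, 582 and 381 in AA, with 1.76 against either set of M kidneys (SE 0.33 in the full comparison, adjusted p = 0.00488).

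Ppp1r8 (chromosome 4, 132826929 to 132843169), a nuclear inhibitor of protein phosphatase 1, was at 0.766, 0.196, 0.176, 3.59 and 2.67 FPKM in M1 to M5 and 10.7, 6.26, 7.48, 6.20 and 10.04 in AA1 to AA5. All AA kidneys exceeded all M kidneys and controls (1.19 to 4.92), and the log2 fold change was 2.08 (SE 0.41, adjusted p = 0.00556), by set 1.12 and 2.72. Alyref, an mRNA export adaptor, was at 1.86, 2.52, 0.978, 2.61 and 2.31 in M and at 14.0, 12.9, 6.47, 6.34 and 6.15 in AA (1.68, SE 0.33, adjusted p = 0.00553). Efna5, an ephrin ligand, was at 0.219 to 1.09 in M and 2.51 to 8.5 in AA (1.71, SE 0.35, adjusted p = 0.0064). The groups overlapped in neither gene, and the log2 fold changes against M4 and M5 and against M1 to M3 were 1.47 and 1.82 for Alyref and 1.47 and 1.88 for Efna5.

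Thbd, which encodes the endothelial anticoagulant receptor thrombomodulin (chromosome 2, 148404466 to 148408188), was at 4.93, 2.93, 13.4, 11.4 and 4.13 FPKM in M and 26.7, 16.9, 23.8, 20.5 and 25.7 in AA (1.67, SE 0.39, adjusted p = 0.0109). It rose while the 3 endothelial markers overlapped between the groups. The remaining rises were Chd9, a chromatin remodeller (1.76), Ttc28 (1.77, by set 0.98 and 2.29), Ptk7, a receptor-like pseudokinase (1.70, by set 1.04 and 2.13), Faim, an inhibitor of apoptosis (1.67), and Hnf4a, which is described with the tubular genes.

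**Figure D2:**
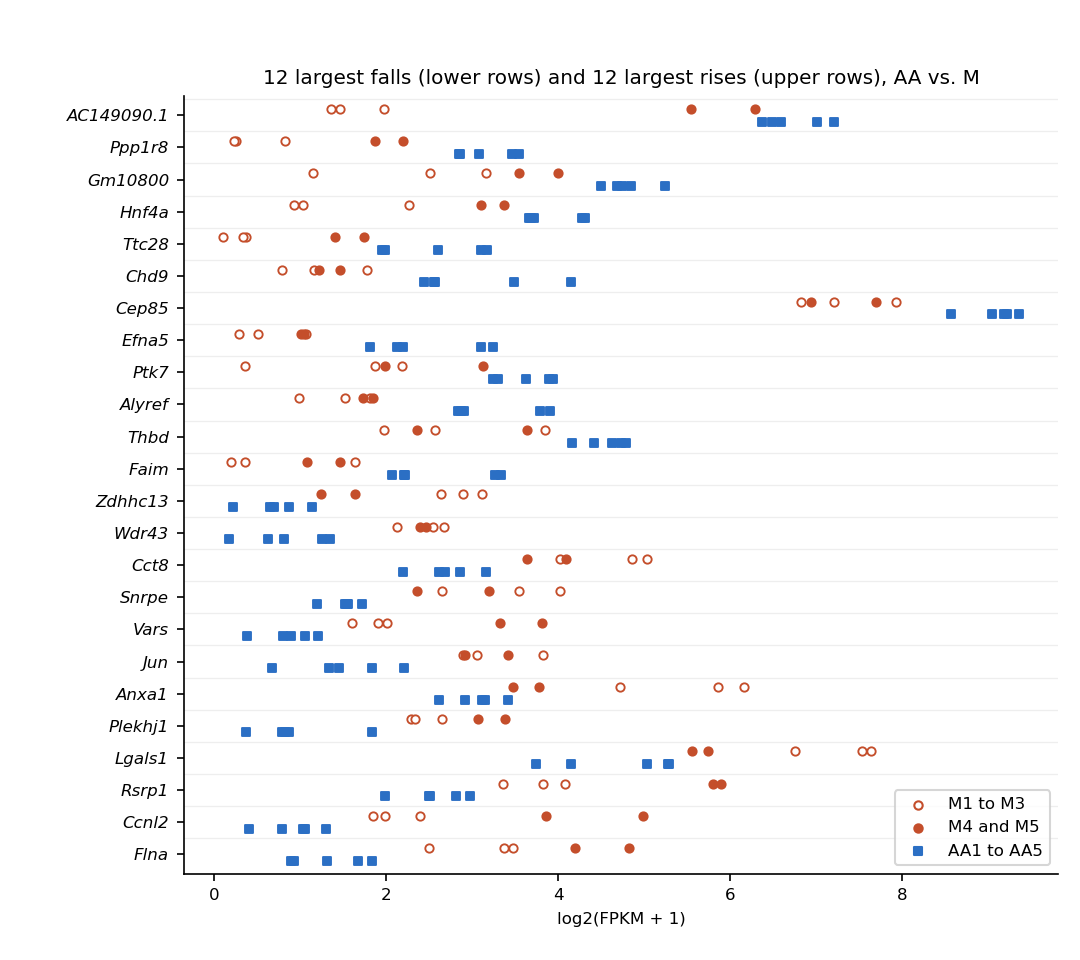
Values of the 12 largest called falls and 12 largest called rises without overlap, 1 row per gene, with log2(FPKM + 1) of each M and AA library as a point. In FPKM, Flna ranges from 4.67 to 27.4 in M and 0.859 to 2.58 in AA, and Cep85 from 113 to 243 in M and 381 to 656 in AA.

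Some extracellular matrix genes rose in AA kidneys and none fell. Of 49 members among collagens, proteoglycans and matrix proteases, 9 rose, none of them without overlap between the groups, and 39 had a log2 fold change above 0, with a median of 0.74 against -0.08 over all members. The risers were the basement membrane genes Col4a1, Col4a2, Nid1 and Col15a1, the fibrillar and fibril-associated collagens Col1a1, Col12a1 and Col14a1, and the microfibril genes Col6a3 and Fbn1. Col4a1 (chromosome 8, 11198423 to 11312826), a chain of type IV collagen, was at 38.3, 19.8, 31, 126 and 25.7 FPKM in M1 to M5 and 129, 94.5, 164, 85.3 and 194 in AA1 to AA5, against 23.2 to 73.6 in controls. Its log2 fold change was 1.72 (SE 0.47, adjusted p = 0.0219), by set 1.14 and 2.11. M4 lay within the AA range and the other M kidneys below it.

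Col1a1, the chain of type I collagen that is the usual measure of scarring (chromosome 11, 94936224 to 94953042), was at 23.8, 19.9, 29.9, 126 and 33.2 FPKM in M and 111, 83.5, 110, 68.9 and 142 in AA, and 10.9 to 23.9 in controls. It rose by 1.45 (SE 0.46, adjusted p = 0.0433), by set 0.62 (adjusted p = 0.449) and 2.00, and was called in only 2 of the 10 fits that each left out 1 library. Nid1, which encodes the basement membrane linker nidogen-1, was at 24.7, 11.5, 22.7, 61.5 and 12.4 in M and 71.6, 52.2, 89.1, 41.2 and 94.4 in AA (1.55, SE 0.45, adjusted p = 0.0278). Col14a1 was at 12.8, 2.02, 15.7, 44.6 and 7.32 in M and 51.9, 39.3, 65.4, 26.2 and 66.2 in AA (1.99, SE 0.58, adjusted p = 0.0304, by set 1.31 and 2.44). In all 9 genes M4 was the highest M kidney and above the lowest AA kidney, and every AA kidney was above the other 4 M kidneys.

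The matrix list is sensitive to single libraries. No member of it was called without M2, without M3 or with only the members fitted and adjusted. The called count was 4 without M1, 6 without M5 and 18 without M4. Its median was 0.54 against M4 and M5 and 0.89 against M1 to M3, and stayed between 0.51 and 0.95 when each library was left out in turn. Fbln5, a component of elastic fibres and the most abundant gene of the endothelial list, was not called (1.10, adjusted p = 0.127).

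Calls in growth factor signalling were few. Of 35 members in the TGF-beta and growth factor list, 3 rose and none fell, with a median of 0.32. Smad7, an inhibitor of TGF-beta receptor signalling, was at 1.45, 1.02, 0.684, 1.56 and 2.14 FPKM in M1 to M5 and 5.44, 7.33, 3.94, 4.01 and 2.88 in AA1 to AA5, with no overlap (1.25, SE 0.31, adjusted p = 0.014, by set 0.96 and 1.45, called in all 10 fits that left out 1 library). Igfbp5, an IGF-binding protein, was at 0.191 to 34.7 in M and 29.0 to 104 in AA (2.68, SE 0.77, adjusted p = 0.0279, by set 1.40 and 3.53), and Ltbp4, which anchors latent TGF-beta to the matrix, at 5.73 to 34.9 and 24.3 to 48.5 (1.41, adjusted p = 0.0314, by set 0.79 and 1.82). Both overlapped. Tgfb1 itself was at 3.52, 3.34, 1.49, 4.08 and 3.81 FPKM in M and 2.16, 0.616, 2.97, 4.09 and 4.69 in AA (-0.21, adjusted p = 0.751, by set -0.47 and -0.03). Acta2, smooth muscle actin and a myofibroblast gene, was at 16.2, 13.0, 12, 49.6 and 33.6 in M and 21.4, 14.9, 15.8, 25 and 19.0 in AA (-0.16, adjusted p = 0.82, by set -1.07 and 0.44). Neither passed, and of 25 members in the fibroblast and myofibroblast list, Loxl2 rose (1.34, by set 0.84 and 1.68, 46.2% of its 31-base words shared with other genes) and Vim fell.

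A minority of the genes of tubular injury and repair fell. Of 33 members, none rose and 5 fell, namely Anxa1, Vim, S100a6, Lgals3 and S100a10, and 27 were below 0 (median -0.62, -0.53 against M4 and M5 and -0.58 against M1 to M3). Anxa1, the phospholipid-binding annexin A1, was at 25.3, 70.5, 57, 10.1 and 12.8 FPKM in M1 to M5 and 6.56, 7.91, 7.67, 9.67 and 5.12 in AA1 to AA5 (-1.76, SE 0.49, adjusted p = 0.025). S100a6, a calcium-binding protein of injured tubules, was at 37.8, 51.7, 47.6, 30.1 and 26.2 in M and 9.24, 8.27, 16.5, 18.4 and 23.1 in AA (-1.35, SE 0.36, adjusted p = 0.0199, by set -0.95 and -1.62). Controls were at 1.85 to 9.24 FPKM for Anxa1, below every M kidney, and at 5.73 to 110 for S100a6, a range that holds all its M values. In both every AA kidney was below every M kidney, but M4 and M5 were much nearer to the AA values, with -0.59 for Anxa1 against them and -2.54 against M1 to M3. No member of the list was called without M3 or with only the members fitted and adjusted. The FPKM summed over all 48 listed genes, members or not, was 1656 to 2946 in M and 1507 to 2068 in AA, with overlap.

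Vim, the intermediate filament protein vimentin, was at 18.8 to 107 FPKM in M and 11.3 to 19.7 in AA (-1.56, adjusted p = 0.0297, by set -0.58 and -2.20). Lcn2, the injury protein lipocalin-2, did not pass the test, at 2.53 to 7.04 in M and 2.20 to 6.56 in AA (-0.02, adjusted p = 0.979, by set -0.43 and 0.26). Spp1, osteopontin, which is in this list and is the most abundant gene of the matrix list, was at 135 to 452 in M and 138 to 176 in AA (-0.80, adjusted p = 0.147, by set -0.26 and -1.16, the latter with an adjusted p of 0.0102). Havcr1, the gene of KIM-1, is not a member because it was at 0 in 1 M library, and its values ran the other way from the falls. It was at 0, 3.31, 0.127, 2.39 and 5.41 FPKM in M1 to M5 and 6.32, 15.6, 10.5, 3.91 and 9.06 in AA1 to AA5. All AA kidneys but AA4 were above every M kidney.

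A few macrophage genes fell. Of 42 members in the macrophage and dendritic cell list, none rose and 4 fell (C1qb, Fcer1g, Lgals3 and Cyba), 36 were below 0 and the median was -0.50 (-0.41 against M4 and M5 and -0.49 against M1 to M3). With only the members fitted and adjusted, 1 of its members was called. The FPKM summed over all 54 listed genes, members or not, was 898 to 1180 in M and 542 to 850 in AA, without overlap. C1qb, a chain of complement C1q made by macrophages (chromosome 4, 136880129 to 136886187), was at 35.6, 34.7, 35.1, 25.8 and 28.9 FPKM in M1 to M5 and 15, 7.34, 11, 12.8 and 14.2 in AA1 to AA5. Its log2 fold change was -1.36 (SE 0.30, adjusted p = 0.00837), -1.15 against M4 and M5 and -1.51 against M1 to M3, and it was called whichever library was left out.

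Fcer1g, the signalling subunit of Fc receptors, was at 14.2, 54.4, 29.8, 13.1 and 41.8 FPKM in M and 5.04, 14.8, 9.53, 6.39 and 7.82 in AA (-1.58, SE 0.43, adjusted p = 0.0232). Lgals3, galectin-3, was at 23.7 to 50.5 in M and 10.9 to 21.9 in AA (-1.17, adjusted p = 0.0267). Fcer1g overlapped through M1, M4 and AA2, and Lgals3 did not overlap. Lyz2, a lysozyme and the most abundant of the 4 defining macrophage markers, was lower in M4 and M5 than in M1 to M3, at 241, 289, 307, 70.7 and 60.5 in M and 106, 110, 85, 76.3 and 57.4 in AA (-0.87, adjusted p = 0.237, by set 0.37 and -1.70).

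Of 58 members in the Toll-like receptor, cytokine and chemokine list, 5 fell (Jun, Tnfrsf12a, Ccl5, Ccl8 and Ccl9) and 2 rose (Il6ra and Cxcr4), with a median of -0.21 (by set -0.27 and -0.066). Ccl5, a T-cell and monocyte chemokine, was at 5.57, 7.97, 6.75, 2.77 and 8.48 FPKM in M and 1.68, 1.62, 0.139, 0.607 and 4.08 in AA (-1.59, SE 0.41, adjusted p = 0.0179). Tnfrsf12a, the receptor of the injury cytokine TWEAK, was at 3.35 to 10.02 in M and 0.579 to 2.18 in AA without overlap (-1.40, SE 0.33, adjusted p = 0.0112, by set -1.86 and -1.10). Il6ra, the interleukin-6 receptor, ran the other way, at 0.459 to 1.53 in M and 2.18 to 4.11 in AA (1.08, SE 0.29, adjusted p = 0.0204, by set 0.76 and 1.29), as did Cxcr4 (1.39, adjusted p = 0.027, by set 0.72 and 1.83).

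Few interferon-stimulated genes fell. Of 35 members 2 were called lower, Irf7 (-1.34, SE 0.37, adjusted p = 0.0226, by set -1.89 and -0.97), a regulator of interferon genes, and Psme2 (-1.39, by set -2.12 and -0.90), with 33.5% of its 31-base words in other genes. The median was -0.45. The FPKM summed over all 49 listed genes, members or not, was 350 to 381 in M and 204 to 264 in AA. In the complement and antigen presentation list (30 members), C1qb was the single call. The immediate early and circadian list (23 members, median -0.39, by set -0.58 and -0.11) had 2 falls, Jun and Ier3 (-1.52, adjusted p = 0.045), and the lymphocyte list 1 of 5, Ccl5.

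The spliceosome list had the most falls of the 44 lists by count, but not by share. Of its members 10.8% fell, against 15.2% in the tubular injury list and 2.00% of all members. Of 83 members of the spliceosome, SR and hnRNP list, none rose, 9 fell (Rbm39, Snrpe, Hnrnpd, Tra2a, Hnrnpa2b1, Hnrnph1, Srsf1, Srsf6 and Ddx39b) and 68 were below 0. The median was -0.66, by set -0.81 and -0.50, and between 6 and 18 of its members were called when each library was left out in turn. With only the members fitted and adjusted, 5 of its members were called. Rbm39 (chromosome 2, 156147239 to 156180238), an SR-like splicing factor, was at 9.32, 14.7, 17.1, 10.1 and 14.3 FPKM in M1 to M5 and 4.5, 3.86, 3.13, 3.74 and 4.51 in AA1 to AA5. The lowest M kidney was above the highest AA kidney, and the log2 fold change was -1.49 (SE 0.29, adjusted p = 0.005), -1.40 against M4 and M5 and -1.54 against M1 to M3. The control range was 9.25 to 29.4, so the M values lay within it and the AA values below it.

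Hnrnpd, an AU-rich element binding protein, was at 3.88, 6.61, 4.08, 3.52 and 4.92 FPKM in M and 1.20, 1.36, 1.26, 1.74 and 1.33 in AA (-1.22, SE 0.27, adjusted p = 0.00912), against 2.66 to 4.75 in controls. Snrpe, an Sm core protein of the snRNPs, was at 5.28, 15.3, 10.7, 4.13 and 8.17 in M and 1.87, 1.29, 1.94, 1.91 and 2.31 in AA (-1.65, SE 0.34, adjusted p = 0.00703), with 13.8% of its 31-base words in other genes. Both did not overlap, as was the case for 7 of the 9 called splicing genes, and both were called whichever library was left out. With voom on the recovered counts, Hnrnpd was called (adjusted p = 0.00793) and Snrpe was not (adjusted p = 0.108).

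Protein synthesis genes had few calls. Among 55 translation factors, Eif4a1 (-1.21, adjusted p = 0.0184) and Eif4g1 (-1.09, adjusted p = 0.0276, by set -0.81 and -1.28), the helicase and scaffold of the cap-binding complex, fell and Eif1ad rose (1.33, by set 0.67 and 1.77, with 428 exonic bases shared with Banf1). Of 79 cytosolic ribosomal proteins, Rpl36 (-1.13) and Rps18 (-1.04, by set -0.54 and -1.38) fell, a share of 2.53%, near the 2.00% of all members that fell. The 79 had a median of -0.60, and 74 were below 0. That median was -1.10 against M1 to M3 and 0.17 against M4 and M5, so its direction depends on which M kidneys are used. Rps3a1, the most abundant, was at 564, 589, 582, 154 and 112 FPKM in M1 to M5 and 386, 392, 325, 276 and 321 in AA1 to AA5, between the sets (0.07, adjusted p = 0.938, by set 1.35 and -0.78, with adjusted p of 0.0306 and 0.031). Rpl36 shares 94.1% and Rps18 22.4% of 31-base words with other genes, so their counts are uncertain.

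Genes of protein folding and turnover had a few falls. Cct8 and Cct7, subunits of the cytosolic chaperonin, were the calls among 27 cytosolic chaperones and heat shock proteins (median -0.50, by set -0.23 and -0.85). Cct8 was at 15.3, 31.7, 28.2, 11.5 and 16.1 FPKM in M and 5.14, 7.94, 6.28, 5.43 and 3.58 in AA (-1.63, SE 0.35, adjusted p = 0.00739, by set -1.17 and -1.94). Creld2 (-1.54, by set -2.25 and -1.07) and Atf4 (-1.25, adjusted p = 0.0229), a stress-response factor, fell among 29 genes of ER chaperones and the unfolded protein response, whose median was 0.18 (by set 0.46 and -0.016). Psmb3 was the single call of 37 proteasome subunits (-1.05, median of the list -0.42, by set -0.089 and -0.57), Mrpl14 of 52 mitochondrial ribosomal proteins (-1.44), and Rpa3 (-1.50, by set -0.75 and -2.0) and Hmgb2 (-1.66, by set -0.72 and -2.28) the calls of 38 cell cycle genes. The share called was 2.70% for the proteasome and 1.92% for the mitochondrial ribosome, near the 2.00% of all members that fell.

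In the actin cytoskeleton and focal adhesion list (61 members, median -0.15, by set 0.0013 and -0.22), Flna and Plec fell. Plec, which encodes the linker plectin, was at 0.909 to 8.33 FPKM in M and 0.122 to 0.802 in AA (-1.48, SE 0.38, adjusted p = 0.0181, by set -2.10 and -1.06). Itgb6, an epithelial integrin subunit that activates latent TGF-beta, rose in the same list, from 0.538 to 1.96 FPKM in M to 2.68 to 4.5 in AA, without overlap (1.05, SE 0.29, adjusted p = 0.0224, by set 0.72 and 1.27).

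**Figure D3:**
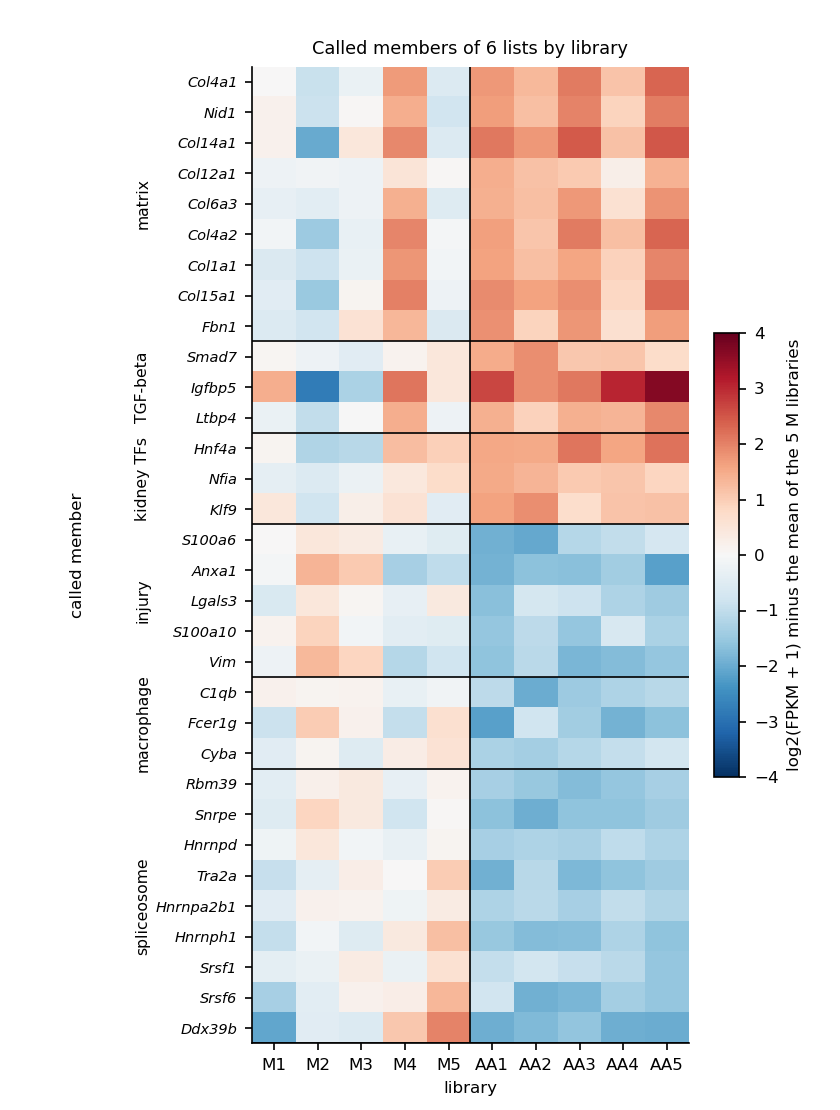
Log2(FPKM + 1) of 32 called members of 6 lists in each M and AA library, shown as the difference from the mean of the 5 M libraries in colour (scale limits of 4 in either direction, values from -2.78 to 3.68). The matrix genes are high in the AA libraries and in M4, while the called splicing and macrophage genes are low in all 5 AA libraries.

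Some tubular regulators and enzymes rose. Of 22 kidney transcription factors that are members, 3 rose (Hnf4a, Nfia and Klf9), none fell and the median was 0.37 (by set 0.19 and 0.70). Hnf4a, which directs proximal tubule differentiation (chromosome 2, 163506808 to 163572910), was at 3.80, 0.912, 1.05, 9.37 and 7.6 FPKM in M1 to M5 and 11.9, 11.7, 18.5, 12.2 and 18.8 in AA1 to AA5. The groups did not overlap, the AA values lay within the control range (8.51 to 31), and the log2 fold change was 1.79 (SE 0.47, adjusted p = 0.0195). It was 2.52 against M1 to M3 and 0.69 against M4 and M5.

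Klf9, a Kruppel-like factor induced by glucocorticoids, was at 5.55, 1.79, 4.63, 6.26 and 2.49 FPKM in M and 13.7, 16.6, 6.92, 9.62 and 9.82 in AA (1.30, SE 0.36, adjusted p = 0.0235). Nfia was at 0.896 to 3.54 in M and 3.97 to 6.92 in AA (1.18, adjusted p = 0.0224, by set 0.61 and 1.56). Klf9 moved nearly alike against both sets (1.24 and 1.34), and neither gene overlapped.

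Among metabolic genes, 2 of 35 members of fatty acid oxidation rose, Acot1 (1.26, SE 0.32, adjusted p = 0.0167), an acyl-CoA thioesterase with 22.7% of its 31-base words in other genes, and Acsm2, a medium-chain acyl-CoA synthetase of proximal tubules. Acsm2 was at 4.90, 2.58, 2.01, 4.28 and 4.07 FPKM in M1 to M5 and 9.12, 7.5, 8.99, 5.14 and 11.1 in AA1 to AA5, below controls (11.8 to 67.3), with a log2 fold change of 1.05 (SE 0.31, adjusted p = 0.0343). Scd1, the stearoyl-CoA desaturase, was at 2.96, 3.52, 5.31, 4.12 and 3.55 in M and 11.8, 9.90, 8.5, 7.35 and 13.3 in AA (1.18, SE 0.29, adjusted p = 0.0134). Scd1 was the single call of 28 cholesterol and lipid synthesis genes and had the same value, 1.18, against either set of M kidneys.

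Cyp2j5, a kidney P450 that epoxidizes arachidonic acid, was at 9.48, 3.22, 4.08, 3.63 and 6.28 FPKM in M and 15.6, 23.5, 18.1, 7.33 and 17.5 in AA (1.46, SE 0.37, adjusted p = 0.0164), and was the single call of 15 members among P450 and phase II enzymes, of which 13 were above 0. Mep1a, a brush border metalloprotease, was at 0.832 to 7.34 in M and 8.67 to 12.5 in AA (1.25, adjusted p = 0.0381, by set 0.62 and 1.67), and Cldn2, the cation-permeable claudin of proximal tubules, at 0.467 to 2.74 and 1.91 to 6.95 (1.19, adjusted p = 0.0453, by set 0.76 and 1.48). In the Nrf2 and glutathione list (50 members), Me1 rose (1.42, 30.0% of 31-base words shared) and Pgd fell (-1.06, adjusted p = 0.0185), both of them sources of NADPH.

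The large tubular programmes had no call. None of 16 proximal tubule solute transporters, 9 organic anion and cation transporters, 71 oxidative phosphorylation subunits, 28 TCA cycle and matrix enzymes or 22 genes of glycolysis and gluconeogenesis passed the test. Their medians were 0.27, 0.57, -0.09, 0.11 and -0.13. These medians depended on the M kidneys used. By set, they were -0.13 and 0.67 for the proximal tubule transporters, 0.062 and 0.74 for the organic ion transporters, 0.075 and -0.24 for oxidative phosphorylation, 0.22 and 0.085 for the TCA cycle, and 0.11 and 0.096 for glycolysis and gluconeogenesis. All 9 organic ion transporters were above 0, among them Slc22a12, the urate transporter, at 9.80, 0.936, 0.720, 17.5 and 12 FPKM in M1 to M5 and 12.3, 15.8, 17.1, 7.67 and 30.9 in AA1 to AA5 (1.40, adjusted p = 0.151). The AA values overlapped those of M4 and M5, and by set the log2 fold change was 0.06 and 2.29, the latter with an adjusted p of 0.0121.

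Slc27a2, a fatty acid transporter and acyl-CoA synthetase of proximal tubules, was at 4.45, 4.77, 1.29, 72.5 and 71.1 FPKM in M and 13.2, 10.7, 9.51, 6.41 and 12.4 in AA, and 120 to 707 in controls. Its fold change of -0.23 (adjusted p = 0.883) joined opposite values, by set -2.71 and 1.42, with adjusted p of 0.00359 and 0.0133. Gpx3, the secreted glutathione peroxidase, was at 172 to 711 in M and 309 to 460 in AA (0.14, adjusted p = 0.845, by set -0.49 and 0.56), and 1221 to 5939.9 in controls. Neither list of the loop of Henle and distal tubule (20 members), the collecting duct (11) or intercalated cells (20) nor those of podocytes (16) and endothelium (21) held a call.

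No member of the retinoid metabolism and receptor list was called (17 members, median 0.11, by set -0.011 and 0.24). Aldh1a1, which makes retinoic acid from retinal, was at 1.61, 1.01, 1.06, 0.864 and 0.773 FPKM in M1 to M5 and 5.31, 3.44, 1.57, 2.66 and 2.64 in AA1 to AA5, and only AA3 fell within the M range. Its adjusted p was 0.044, but its log2 fold change of 0.95 (SE 0.30) was short of the threshold of 1. It passed both thresholds with equal summed FPKM of nuclear protein-coding genes (1.02, adjusted p = 0.0321), after centring on the members' median (1.03, adjusted p = 0.0249), with voom on recovered counts (1.59, adjusted p = 0.0447), with a pseudocount of 0.1 (1.41, adjusted p = 0.0499), without M1 (1.04, adjusted p = 0.0494) and without AA3 (1.11, adjusted p = 0.0288). It passed neither after quantile normalization (0.68, adjusted p = 0.155), and against M4 and M5 (1.12) and M1 to M3 (0.84) the adjusted p was 0.0844 and 0.079. Cyp2a5, at 0 in 2 M libraries and 1 AA library, and Rara, at 0 in 1 M library, are not members.

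Over the 44 lists, 8 had called members that were higher only, 13 lower only, 5 in both directions and 18 none. Of all members, 3.66% were called in either direction. The share was 18.4% in the matrix list, 13.6% among kidney transcription factors and 9.52% in the macrophage list. It was 8.57% in the TGF-beta list and 5.71% in fatty acid oxidation. The lists were examined by their counts and medians, and no list was tested against the others.

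**Figure D4:**
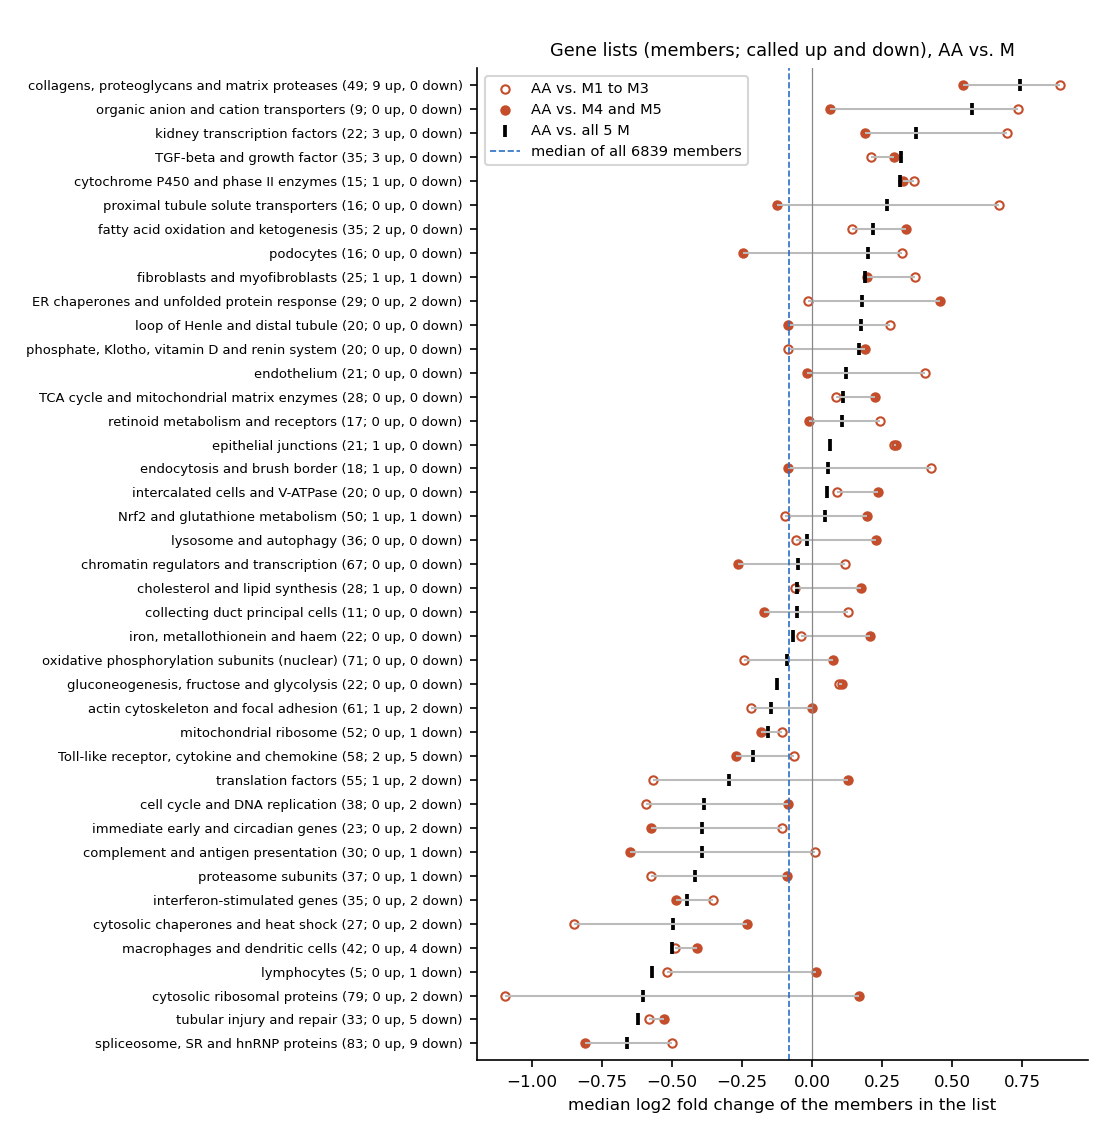
Median log2 fold change of the members in each of the 41 lists with 5 or more members, on the log2(FPKM + 1) scale, in the full comparison and against M4 and M5 or M1 to M3 alone, with the number of members and of called rises and falls beside each name. The matrix list has the highest median (0.74) and the spliceosome list the lowest (-0.66), and the ribosomal protein list changes sign between the 2 sets of M libraries (0.17 and -1.10).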

How the data were processed

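Kidney RNA of 15 mice was sequenced, and the 5 libraries of the M group and 5 of the AA group entered the comparison. Groups and mouse numbers were taken from the labels. Per the labels, the authors trimmed reads with fastp, aligned them to mm10 with HISAT2 2.0.5 and counted them with featureCounts 1.5.0-p3. They deposited 1 FPKM value per gene and kidney. The annotation release behind these values is not given in the sources used here. The authors tested with DESeq2 on a count table that was not used here. Symbols, positions and biotypes came from GENCODE M21 (GRCm38), joined on the Ensembl identifier, where 37 genes were not found.

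The deposited FPKM of each library, multiplied by gene length and summed, gave totals of 0.435 to 1.93 relative to the value that FPKM has by definition, while the median ratio of a library to the others over 7207 genes above 0 in all 15 was 0.998 to 1.09. Values of low genes fell on whole multiples of a step (97.7% to 99.0% within 0.05 of a count, for multiples up to 24), from which counts were recovered. Whether such a count is a read or a pair is not given in the sources used here.

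Members were nuclear protein-coding genes above 0 in all 10 libraries, of which 137 had a lowest value of 1 or 2 recovered counts. limma 3.58.1 in R 4.3.3 (lmFit, eBayes with a trend) was fitted to log2(FPKM + 1), which understates the change of low genes, over the 10 libraries with no block, for genes above 0 in at least 5, and p-values were adjusted over all 19798. A call needed an adjusted p no larger than 0.05 together with an absolute log2 fold change no smaller than 1. Leave-one-out fits, other scalings, filters and pseudocounts, voom, library quality weights, a replicate block and each set of M libraries were the alternatives. On simulated data, 184 of 200 members given a log2 change of 2 were recovered, with 5 of 6639 unchanged members called, and 0 of 6839 where none was changed. That run held 6839 genes, whereas the reported p-values were adjusted over 19798. It also drew independent values with 1 spread per gene for both groups, whereas M1 to M3 stood apart from M4 and M5 in the data. How far its counts apply to the reported calls was not tested.

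The members, the 44 lists and the tests were chosen with earlier results of these data known. Genes are named by a rule: the 12 largest called rises and falls without overlap that kept their sign under each scaling and M set, up to 3 called members per list and direction with the lowest adjusted p, the most abundant member of a list, and genes whose products the study measured by other assays. Lyz2 and the other called members of a list were named after their values were seen. Sequence shared with other genes was counted as 31-base words of the annotated transcripts. Python 3.11.15 with numpy 2.4.6, pandas 2.3.3 and matplotlib 3.10.9 was used.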

Additional observations from a re-analysis of the deposited data

Results flagged for a closer look

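Among the 79 named members looked at, 3 of 158 groups of 5 kidneys (1.9%) held a library far from the other 4 by Dixon's ratio of gap to range, above the critical value of 0.71. Chance gives about 1 in 20 such groups. Col1a1 in M4 was at 126 FPKM while the other M kidneys were at 19.9 to 33.2 (ratio 0.728). Tgfb1 in M3 was at 1.49 FPKM against 3.34 to 4.08 in the other M kidneys (ratio 0.78). Eif4g1, the scaffold of the cap-binding complex, was at 2.02 FPKM in AA2 against 3.57 to 4.36 in the other AA kidneys (ratio 0.722).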

How the results depend on the processing

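The count of called members moved with many settings, here as higher and lower against 113 and 137. Centring on the members' median gave 171 higher, quantile normalization 49 and 450, fitting only the members 38 and 52, no filter on low values 69 and 87, library quality weights 57 and 389, AA against M4 and M5 only 40 and 516, and AA against M1 to M3 only 317 and 326. With no pseudocount and only the members fitted, limma called 0 and 0, with 1273 members at an unadjusted p under 0.05, and the other settings called 38 to 317 higher and 52 to 516 lower. Leaving out each library in turn gave 47 (without M3) to 147 (without M4) higher and 93 (without AA2) to 166 (without M1) lower. The higher count was 61 without M2, 53 without AA1 and 67 without AA2. The replicate block gave 53 and 82, of which 52 and 76 were among those reported. The labels do not say whether the mouse numbers pair the kidneys. Same-numbered deviations correlated at -0.018, 0.136, -0.078, 0.045 and -0.048 and only number 2 correlated best with its own, which does not settle it.

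Of the 70 named members that were called, none changed direction under the alternatives, 65 were also called against M1 to M3, 21 against M4 and M5 and 0 with no pseudocount. Several uncalled members changed sign. Slc27a2 was 1.42 against M1 to M3 (adjusted p = 0.0133 with limma), 0.39 without M4 and 0.39 without M5, in a range from -0.86 over the fits without 1 library. Acta2 was 0.44 against M1 to M3 and 0.13 without M4 (range from -0.36), and Tgfb1 0.082 without AA2 (range from -0.39). Rps3a1 was -0.78 against M1 to M3, -0.19 without M4 and -0.30 without M5 (range to 0.29), and Gpx3 -0.14 with quality weights, -0.49 against M4 and M5 and -0.12 without M2 (range to 0.39). Apart from the settings with fewer libraries or genes, the cause was not tested. A gene at 0 in any of M1 to M3 could not be a member. Among named members that were not called, Aldh1a1 was called under 6 alternatives, Rps3a1 against M4 and M5, Spp1 and Slc22a12 against M1 to M3, and Slc27a2 against each set, with opposite signs.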

Other observations

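The following genes and lists were chosen after their values were seen. A minority of the genes of ribosome assembly and of tRNA charging fell, and neither list was tested as a whole. Of 73 members among nucleolar ribosome biogenesis factors, 12 fell and none rose, and 60 were below 0, with a median log2 fold change of -0.44 (-0.47 against M4 and M5, -0.38 against M1 to M3). Fbl, the methyltransferase fibrillarin, was at 2.46, 2.39, 3.50, 2.98 and 4.35 FPKM in M1 to M5 and 0.698, 0.290, 1.17, 1.42 and 0.974 in AA1 to AA5, without overlap (-1.13, SE 0.29, adjusted p = 0.0171). Mybbp1a, a nucleolar regulator of rRNA synthesis, was at 2.33 to 9.41 in M and 0.611 to 1.67 in AA (-1.54, SE 0.35, adjusted p = 0.00944, by set -2.09 and -1.17), and Wdr75, a subunit of the small subunit processome, at 1.62 to 6.21 and 0.0544 to 0.679 (-1.49, SE 0.32, adjusted p = 0.00829). Of 17 cytosolic aminoacyl-tRNA synthetases, Vars, Gars, Rars and Qars fell, none rose and 16 were below 0 (median -0.59, -0.52 against M4 and M5 and -0.77 against M1 to M3). Rars, which charges arginine tRNA, was at 3.79 to 5.46 FPKM in M and 0.578 to 3.22 in AA (-1.13, adjusted p = 0.0256).

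Further called members outside the lists above were picked from the 113 rises and 137 falls after their values were seen, and stand for no group. Fdx1, a mitochondrial ferredoxin, was at 3.25, 0.247, 0.712, 1.75 and 1.20 FPKM in M1 to M5 and 5.11, 4.5, 5.84, 4.93 and 5.00 in AA1 to AA5 (1.44, SE 0.34, adjusted p = 0.0112, and 1.30 against M4 and M5). Sord, sorbitol dehydrogenase, was at 13.4 to 39.1 in M and 42.7 to 85.6 in AA (1.32, adjusted p = 0.0202), Ghr, the growth hormone receptor, at 3.29 to 6.90 and 6.95 to 16.7 (1.36, adjusted p = 0.0127), and Ass1, the argininosuccinate synthase of arginine synthesis, at 5.63 to 12.5 and 12.8 to 27.4 (1.22, adjusted p = 0.02). None of these 4 overlapped between the groups. Of 11 integrins, 3 rose (Itga8, Itga9 and Itgb6), with a list median of 0.65 (by set 0.52 and 0.90). Of 6 laminins, Lama2 rose (1.69, adjusted p = 0.0208), with a list median of 0.86 (by set 0.56 and 1.43). Bax, a promoter of apoptosis, fell, at 5.58, 4.43, 8.5, 13.6 and 24.2 FPKM in M and 0.932, 0.915, 5.24, 3.55 and 2.44 in AA (-1.69, SE 0.47, adjusted p = 0.0242, by set -2.56 and -1.10), with 1 AA kidney above the lowest M kidney, and Casp8, an initiator caspase, was at 4.33 to 10.2 and 1.24 to 3.17 without overlap (-1.32, adjusted p = 0.0132).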
